A study of Mus musculus with 6 samples.

Results

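G protein coupled receptors are membrane proteins that cross the membrane several times and pass the binding of a ligand on to G proteins inside the cell. Genes of the mouse Gpr series are mostly orphans, receptors whose natural ligand is unsettled or was found late, and some of them are not receptors of the cell surface at all. Genes of the Adgr series encode adhesion receptors, whose long outer ends bind matrix or neighbouring cells and are cut from the part that spans the membrane. In microglia, the macrophages of the brain, receptors of both series sense lipids, acid and tissue contacts. The genes described here are those whose symbol is Gpr or Adgr followed by a number (for Adgr, a letter and a number), leaving out Gpr34, with 10 or more counts over the peak and naive RNA-seq libraries. Of 42303 genes in the table, 92 had such a symbol and 63 of them reached 10 counts, which made 20 adhesion genes and 43 Gpr genes. Just inside the rule lay Gpr176, with 11 peak counts and 0 naive counts. Just outside lay Adgrf2, with 6 peak counts and 3 naive counts.

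The cells came from mice at the clinical peak of EAE (experimental autoimmune encephalomyelitis, in which immunisation with peptide 35 to 55 of myelin oligodendrocyte glycoprotein brings on a disease like multiple sclerosis), and from naive mice. All mice were Ccr2rfp/+::Cx3cr1gfp/+ on a C57Bl/6 background, so cells of both conditions carried 1 reporter copy in place of Ccr2 and 1 in place of Cx3cr1; the labels give an age of 24 to 28 weeks for the EAE mice. Mononuclear cells of brain and spinal cord were taken from a 30% and 70% Percoll gradient and sorted on F4/80 and CD45, and cells of 30 mice were pooled per condition. Each condition gave 1 RNA-seq library, and methylated DNA captured with a methyl-CpG binding domain (MiGS) was sequenced in 2 libraries per condition.

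The peak RNA-seq library held 36561934 counts and the naive library 31282093 counts. With 1 library per condition there was no replicate check and no test. Ratios were scaled by TMM, a method that centres the bulk of genes, and carry exact Clopper-Pearson 95% intervals that cover counting error only. The label of microglia was borne out by its markers: all 12 listed microglial genes were measured, with a summed level of 15702 FPKM (fragments scaled by gene length and library total) in the peak library and 19628 FPKM in the naive library. Of these 12, 11 had a log2 ratio of peak over naive below 0 and 1 above, with a median of -0.63. Fcrls and P2ry12, 2 of these, passed 2-fold on the lower side. Markers of other cells were present too, in both libraries. Monocyte markers summed to 1177 FPKM in the peak library and 361 FPKM in the naive library. Most of both sums came from Lyz2 alone, with 1022 FPKM in the peak library and 349 FPKM in the naive library. Of 13 monocyte markers with 50 or more counts, 11 were at least 2-fold higher in the peak library, with none of the listed 15 at 0 in either library. In bulk samples such as these, fewer cells of a type and less RNA per cell cannot be told apart.

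Adgre1 was the member with the highest level in both libraries, with 238 FPKM in the peak library and 235 FPKM in the naive library. Its product is F4/80, the antigen on which the cells were sorted, so the sort selected on it and its level is not a finding between the libraries. It alone gave 34.0% of the members' summed FPKM in the peak library and 30.3% in the naive library. Next in the peak library came Gpr84, a receptor for medium-chain fatty acids on activated phagocytes (114 FPKM), Adgrg1, an adhesion receptor of microglia and of the developing cortex (70.1 FPKM), and Gpr108, a protein of the Golgi (36.2 FPKM). The naive library had another order below Adgre1, with Adgrg1 (154 FPKM), Gpr183 (82.6 FPKM), Gpr155 (49.4 FPKM) and Gpr84 (39.0 FPKM). The summed level of all members was 699 FPKM in the peak library and 777 FPKM in the naive library. Adhesion genes summed to 326 FPKM in the peak library and 418 FPKM in the naive library, of which Adgre1 and Adgrg1 together made 94.5% in the peak library and 93.2% in the naive library. Gpr genes summed to 374 FPKM in the peak library and 359 FPKM in the naive library. Low levels were common: 31 members in the peak library and 28 in the naive library were above 1 FPKM, and 13 in each were above 10 FPKM. These FPKM values are scaled by library totals, so a ratio of 2 FPKM values is 0.856 times the plain ratio of counts.

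**Figure D1:**
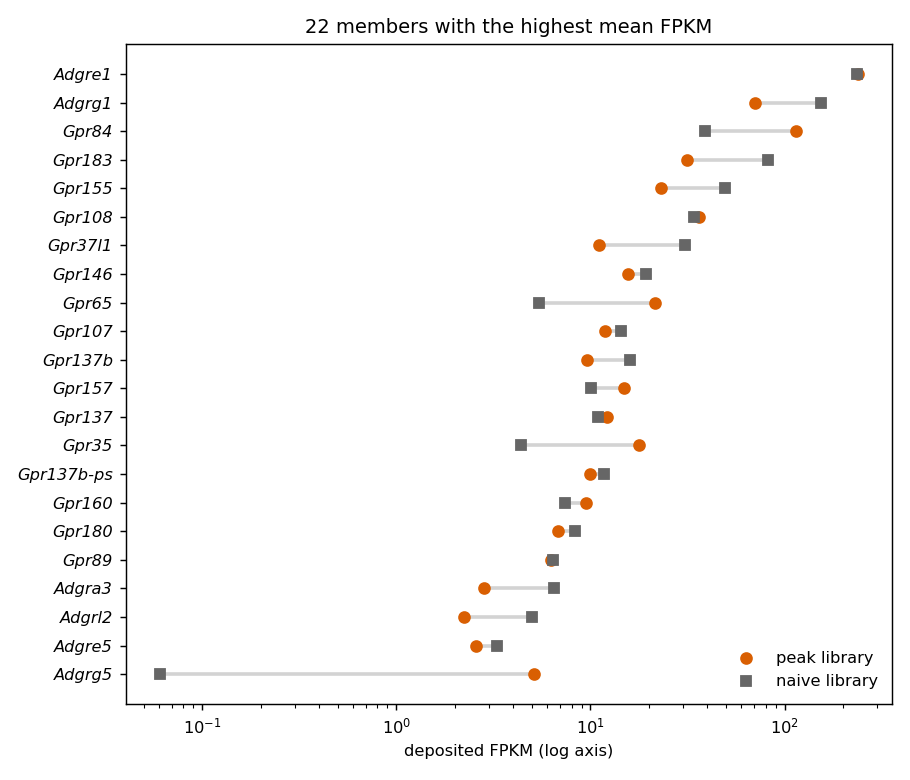
Deposited FPKM (log axis) of the 22 members with the highest mean, in the peak library (circles) and the naive library (squares). Adgre1 lies at 238 FPKM in the peak library and 235 FPKM in the naive library, while Gpr84, Gpr65 and Gpr35 lie to the right in the peak library and Adgrg1, Gpr183 and Gpr37l1 to the right in the naive library.

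The 2 families differed in how their genes were distributed between the libraries. Of 46 members with 50 or more counts, 10 were at least 2-fold higher in the peak library, against a background of 11.6% of all 14367 genes with 50 or more counts, and 16 were at least 2-fold lower, against a background of 9.35%. The members' median log2 ratio of peak over naive was -0.24, and that of all genes was -0.0027. Among 17 adhesion genes, 13 were lower, 1 was higher (Adgrg5) and 3 were neither, with a median of -1.14. Among 29 Gpr genes, 9 were higher, 3 were lower (Gpr183, Gpr37l1 and Gpr155) and 17 were neither, with a median of 0.17. Many of the lower ratios lay close to 2-fold: when the whole interval had to lie beyond 2-fold, 10 members stayed higher (background 8.83%) and 8 stayed lower (background 4.29%). By family, 6 of the 17 adhesion genes then stayed lower and 1 higher, and 2 of the 29 Gpr genes stayed lower and 9 higher. Of the 10 higher members, 7 had 23 or fewer counts in the naive library, so the size of their ratios rests on few naive reads.

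**Figure D2:**
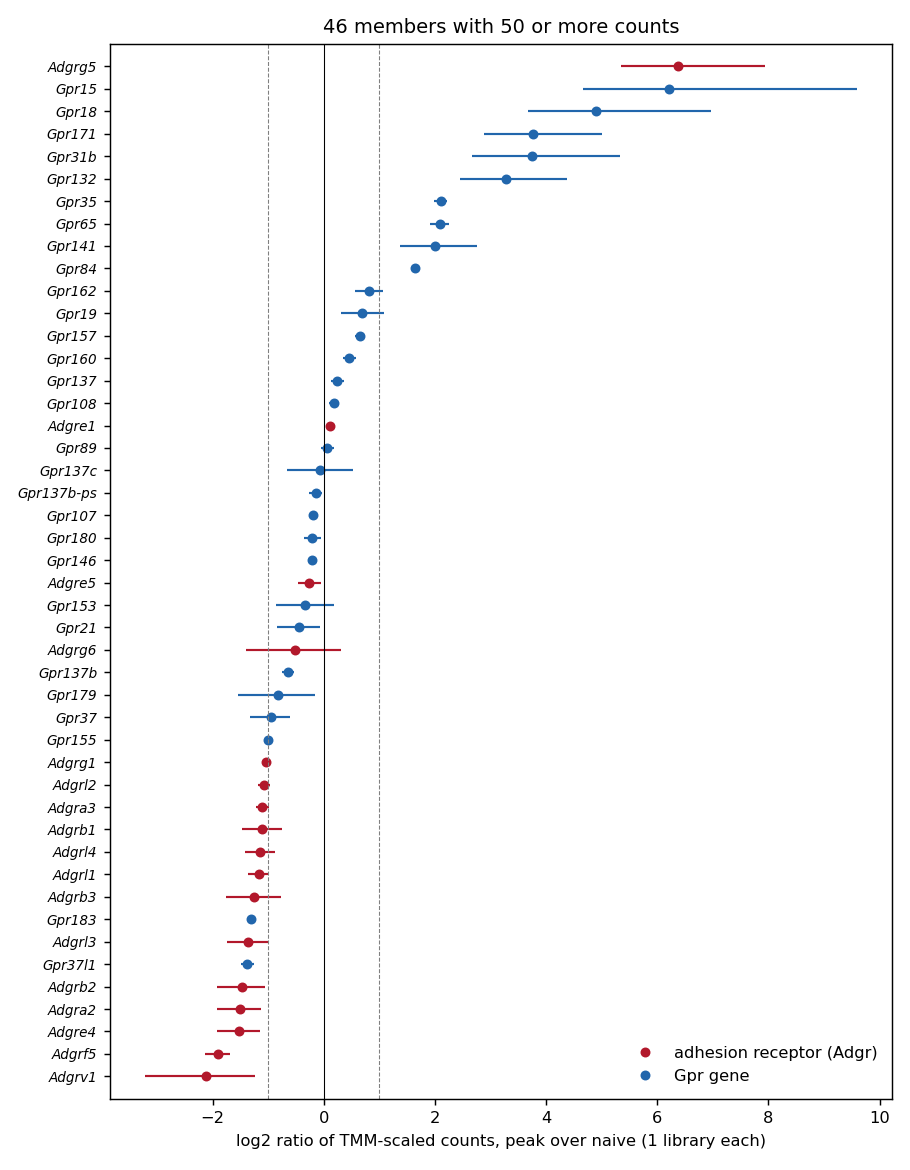
Log2 ratio of TMM-scaled counts, peak over naive, for the 46 members with 50 or more counts, with exact 95% intervals for counting error (lines) and dashed lines at 2-fold. Adgrg5, at 6.37, is the one adhesion gene on the right, and 13 of the 17 adhesion genes lie beyond the dashed line on the left.

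The sequence before the start of the genes was compared with these ratios, because CpG content separates broadly used promoters from those of restricted genes. Starts of 47 of the 63 members were matched in the RefSeq table of build GRCm38.p6, 37 of them with 50 or more counts, and for each gene the tabulated start nearest to its outer 5′ end was used. That start was the outer end itself for 20 of the 47 members, lay within 500 bp of it for 34, and lay farther inside the gene for 13, among them Gpr35, Gpr132, Adgrg5, Adgrg1 and Adgrl2 (34.5 kb inside). In the 250 bases before the start, the 9 higher members had a median of 3 CpG dinucleotides, the 14 lower members 9, and the 14 members that were neither 16.5. With 5 or fewer CpG were 8 of 9 higher members, 6 of 14 lower members and 2 of 14 that were neither. Beyond the members, 9869 genes in all had 50 or more counts and a tabulated start, the members included. Of these, the shares with 5 or fewer were 28.2% of higher genes, 26.3% of lower genes and 11.5% of those that were neither. With starts within 500 bp of the outer end alone, a limit chosen after seeing the data, 6 of 6 higher members, 4 of 10 lower members and 2 of 12 that were neither had 5 or fewer. The 150 bases before the start are shown for 5 CpG-poor and 3 CpG-richer members, on the strand of the gene and ending at the base before the start, with each CpG in capitals; in these 8 genes the start is the outer end. The CpG-poor examples are Gpr15 (chr16:58718873-58719022, minus strand), Gpr31b (chr17:13052281-13052430, minus strand), Gpr18 (chr14:121915889-121916038, minus strand), Gpr65 (chr12:98268485-98268634, plus strand) and, among the lower members, Gpr183 (chr14:121965194-121965343, minus strand). The CpG-richer examples are Gpr37l1 (chr1:135167682-135167831, minus strand) and Adgrl1 (chr8:83899948-83900097, plus strand), both lower, and Gpr157 (chr4:150087353-150087502, plus strand), which was neither.
Gpr15: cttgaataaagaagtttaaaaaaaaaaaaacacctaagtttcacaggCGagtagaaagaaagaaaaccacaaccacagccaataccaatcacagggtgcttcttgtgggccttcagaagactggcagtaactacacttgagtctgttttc
Gpr31b: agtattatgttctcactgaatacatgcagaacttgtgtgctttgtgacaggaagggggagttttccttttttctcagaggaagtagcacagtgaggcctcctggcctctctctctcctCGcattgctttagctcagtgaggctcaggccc
Gpr18: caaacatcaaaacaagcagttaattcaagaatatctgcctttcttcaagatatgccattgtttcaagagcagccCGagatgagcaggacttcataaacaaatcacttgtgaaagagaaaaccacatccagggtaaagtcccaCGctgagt
Gpr65: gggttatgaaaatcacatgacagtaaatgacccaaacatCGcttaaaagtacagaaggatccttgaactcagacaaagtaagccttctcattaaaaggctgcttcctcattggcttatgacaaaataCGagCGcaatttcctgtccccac
Gpr183: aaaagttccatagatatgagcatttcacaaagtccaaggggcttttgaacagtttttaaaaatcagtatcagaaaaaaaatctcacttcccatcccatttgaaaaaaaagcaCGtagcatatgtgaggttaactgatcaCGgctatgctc
Gpr37l1: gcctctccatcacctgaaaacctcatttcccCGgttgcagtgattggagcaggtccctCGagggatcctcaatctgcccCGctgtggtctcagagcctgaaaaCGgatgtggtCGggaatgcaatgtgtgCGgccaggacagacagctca
Adgrl1: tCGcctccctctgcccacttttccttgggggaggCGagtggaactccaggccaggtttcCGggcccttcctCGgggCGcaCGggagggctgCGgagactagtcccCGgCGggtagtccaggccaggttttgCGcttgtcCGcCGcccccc
Gpr157: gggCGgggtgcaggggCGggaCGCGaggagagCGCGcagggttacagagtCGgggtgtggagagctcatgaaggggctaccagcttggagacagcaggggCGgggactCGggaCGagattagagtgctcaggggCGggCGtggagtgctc
Gpr15 and Gpr31b held 1 CpG each in these 150 bases, Gpr18 and Gpr183 2 each and Gpr65 3, against 6 in Gpr37l1 and 12 each in Adgrl1 and Gpr157. Gpr183 shows that a CpG-poor start was not particular to the higher members.

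**Figure D3:**
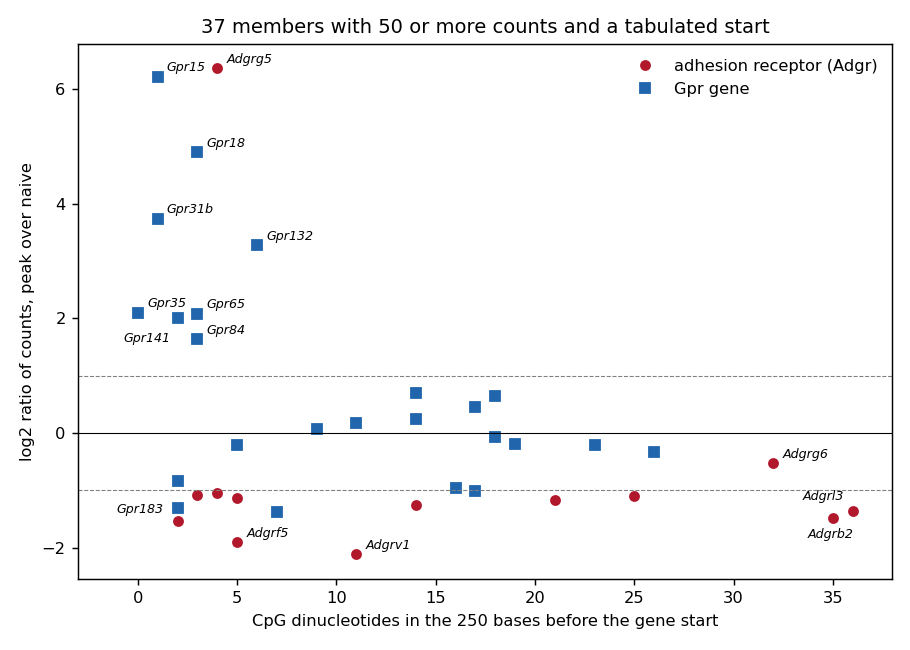
Number of CpG dinucleotides in the 250 bases before the start (horizontal) against the log2 ratio of counts, peak over naive (vertical), for the 37 members with 50 or more counts and a tabulated start. The 9 higher members have a median of 3 CpG, and the members between the dashed 2-fold lines a median of 16.5.

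Among receptors for lipids and metabolites, 4 of 5 were higher in the peak library and 1 was lower. Gpr84 had 6471 peak counts and 1891 naive counts (3.11-fold higher, interval 2.96 to 3.28). Gpr35, a receptor of leukocytes and gut for tryptophan metabolites, had 3143 peak counts and 667 naive counts (4.29-fold higher, interval 3.94 to 4.67). These were abundant genes with narrow intervals. Gpr18, a receptor of lymphocytes and macrophages for lipid mediators, had 147 peak counts and 4 naive counts (33.4-fold higher, interval 12.8 to 124). Gpr31b, the mouse relative of the human receptor for a hydroxylated arachidonic acid, had 95 peak counts and 6 naive counts (14.4-fold higher, interval 6.38 to 40.2). Reads of Gpr31b are uncertain, because RefSeq lists the pseudogene copies Gpr31a and Gpr31c. Gpr18 and Gpr31b were close to absent from the naive library, so their intervals are wide. Gpr183, which guides leukocytes along gradients of oxysterols, went the other way, with 3377 peak counts and 7601 naive counts (2.47-fold lower, interval 2.37 to 2.58).

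The enzymes that make and remove the oxysterol ligands of Gpr183 were not all on the side of their receptor. Ch25h, which adds the first hydroxyl group to cholesterol, had 4158 peak counts and 70 naive counts (54.1-fold higher, interval 42.7 to 69.5). Cyp7b1, which adds the second, had 31 peak counts and 78 naive counts (2.77-fold lower, interval 1.80 to 4.34). Hsd3b7, which breaks the ligand down, had 2309 peak counts and 1116 naive counts (1.88-fold higher, interval 1.75 to 2.02). Of the 4 listed enzymes with 50 or more counts, 1 was thus at least 2-fold higher, 1 lower and 2 neither.

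Both proton-sensing receptors with 50 or more counts were higher in the peak library. Gpr65, which raises cyclic AMP in acid surroundings, had 1621 peak counts and 348 naive counts (4.24-fold higher, interval 3.77 to 4.77). Gpr132, which responds to acid and to oxidised or lysophospholipids, had 122 peak counts and 11 naive counts (10.1-fold higher, interval 5.45 to 20.8). Gpr65 held rank 7 among the members by FPKM in the peak library, against rank 18 in the naive library. Gpr4, a receptor of the same class in endothelium, had fewer than 50 counts, with 7 peak counts and 29 naive counts.

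The 3 orphan receptors of leukocytes were higher in the peak library as well. Gpr15, a homing receptor of T cells for the colon, had 204 peak counts and 2 naive counts (92.8-fold higher, interval 25.4 to 772). Gpr171, a receptor of T cells and other lymphocytes, had 142 peak counts and 9 naive counts (14.4-fold higher, interval 7.35 to 32.0). Gpr141, found in myeloid cells, had 103 peak counts and 23 naive counts (4.08-fold higher, interval 2.57 to 6.71). Their levels in the peak library were low, at 4.33 FPKM for Gpr15, 1.75 FPKM for Gpr171 and 0.821 FPKM for Gpr141. Markers of T cells moved with them: 4 of 6 with 50 or more counts were at least 2-fold higher, and the list of 12 summed to 5.98 FPKM in the peak library and 2.21 FPKM in the naive library. With the whole interval beyond 2-fold, 1 of these 6 stayed higher. In the peak library none of these markers was at 0, while Cd3e, Cd3g and Cd8a were at 0 in the naive library. Peak counts were low, at 2 for Cd3e, 9 for Cd8a, 16 for Trac, 17 for Cd3d and 21 for Cd3g. Of the B cell markers with 50 or more counts, 0 of 2 were higher and 1 was lower. Of the dendritic cell markers, 0 of 5 were higher and 2 lower. Of the border macrophage markers, 2 of 10 were higher and 2 lower. The part of T cells, and of the monocytes whose markers are given above, in these ratios and in those of Gpr18, Gpr31b, Gpr132 and Adgrg5 was not tested.

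Adhesion receptors of group G split. Adgrg5, a receptor of leukocytes, had 589 peak counts and 6 naive counts (89.3-fold higher, interval 40.8 to 244) and reached 5.12 FPKM in the peak library, against 0.0609 FPKM in the naive library. Adgrg1 had 9898 peak counts and 18617 naive counts (2.07-fold lower, interval 2.02 to 2.12). This ratio fell just short of 2-fold with DESeq2 size factors, at a log2 ratio of -0.98. Adgrg3, known from granulocytes, had 13 peak counts and 1 naive count, and Adgrg6, known from myelinating Schwann cells, 22 peak counts and 29 naive counts (1.45-fold lower, interval 0.804 to 2.65, which includes no difference). Of the neutrophil markers, 2 of 7 with 50 or more counts were higher and 2 lower in the peak library, with a summed level of 28.4 FPKM in the peak library and 28.3 FPKM in the naive library; Mpo was at 0 in both libraries and Ly6g at 0 in the naive library.

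The 3 adhesion receptors of leukocytes did not share a direction. Adgre1 had 28219 peak counts and 23894 naive counts (1.07-fold higher, interval 1.06 to 1.09), and its direction turned with upper quartile scaling, to a log2 ratio of -0.03. Adgre5, the leukocyte antigen CD97, had 355 peak counts and 387 naive counts (1.2-fold lower, interval 1.03 to 1.39). Adgre4, a macrophage receptor of the F4/80 family, had 77 peak counts and 203 naive counts (2.90-fold lower, interval 2.22 to 3.82). Of the 3, Adgre4 alone passed 2-fold.

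All 4 Adgrl genes, the latrophilins and the related Adgrl4, were lower in the peak library. Latrophilins bind teneurins and FLRT proteins on other cells. Adgrl2 was the most counted, with 1157 peak counts and 2218 naive counts (2.11-fold lower, interval 1.96 to 2.26). Adgrl1 had 366 peak counts and 753 naive counts (2.26-fold lower, interval 1.99 to 2.57). Adgrl3 had 84 peak counts and 197 naive counts (2.58-fold lower, interval 1.99 to 3.37). Adgrl4, a related receptor of endothelium, had 170 peak counts and 342 naive counts (2.21-fold lower, interval 1.83 to 2.67). The lower bound of all 4 intervals was under 2-fold. The 3 brain adhesion receptors Adgrb1 (100 peak and 197 naive counts), Adgrb2 (65 peak and 166 naive counts) and Adgrb3 (51 peak and 111 naive counts) were 2.16-fold, 2.81-fold and 2.39-fold lower. The median log2 ratio was -1.16 for the 4 Adgrl genes and -1.25 for the brain adhesion receptors. Astrocyte markers (7 of 10 lower, median -1.33, 57.3 FPKM summed in the peak library and 121 FPKM in the naive library) and endothelial markers (8 of 11 lower, median -1.12, 20.1 FPKM in the peak library and 40.5 FPKM in the naive library) were lower too, with none at 0 in either library. Of 6 neuronal markers with 50 or more counts, 0 passed 2-fold, and that list summed to 2.20 FPKM in the peak library and 2.34 FPKM in the naive library. The part of these cell types in the ratios of the Adgrl genes and brain adhesion receptors was not tested.

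The remaining adhesion receptors with 50 or more counts were lower too. Adgrf5, a receptor of endothelium and lung epithelium, had 217 peak counts and 744 naive counts (3.77-fold lower, interval 3.23 to 4.40). Adgra2, a Wnt coreceptor of brain endothelium, had 78 peak counts and 204 naive counts (2.87-fold lower, interval 2.20 to 3.78). Adgra3 had 838 peak counts and 1644 naive counts (2.16-fold lower, interval 1.98 to 2.35), and Adgrv1, a very large receptor of sensory hair cells, 12 peak counts and 49 naive counts (4.49-fold lower, interval 2.35 to 9.27). The endothelial and astrocyte markers given above moved with them, and the part of these cell types in the ratios of Adgrf5, Adgra2, Adgra3 and Adgrv1 was not tested.

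Receptors known from other glia were low or lower. Gpr37l1, a receptor of astrocytes, had 923 peak counts and 2183 naive counts (2.60-fold lower, interval 2.41 to 2.81), with 11.1 FPKM in the peak library and 30.8 FPKM in the naive library. The astrocyte markers given above moved with it, except that 1, Gfap, was at least 2-fold higher and 2 were neither. Gpr37, a receptor of myelinating oligodendrocytes, had 102 peak counts and 181 naive counts (1.95-fold lower, interval 1.52 to 2.51), and passed 2-fold with library totals (log2 ratio -1.05) and with upper quartile scaling (-1.10). Gpr17, of oligodendrocyte precursors, had 3 peak counts and 15 naive counts, and Gpr62 had 6 peak counts and 11 naive counts. Of 9 oligodendrocyte markers with 50 or more counts, 2 were lower, and the list summed to 41.5 FPKM in the peak library and 40.7 FPKM in the naive library with none at 0. The part of either cell type in these ratios was not tested.

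Of 8 members grouped with proteins of intracellular membranes, 7 were neither and 1, Gpr155, was lower. Gpr155, a cholesterol sensor of the lysosome, had 5641 peak counts and 10320 naive counts (2.01-fold lower, interval 1.95 to 2.08), and fell short of 2-fold with DESeq2 size factors, at a log2 ratio of -0.94. The Golgi proteins Gpr108 (2769 peak and 2234 naive counts) and Gpr107 (5519 peak and 5724 naive counts) lay at log2 ratios of 0.17 and -0.19. Gpr137, of the lysosome, had 1237 peak counts and 951 naive counts, at 0.24. Gpr89, which sets the acidity of the Golgi, had 1234 peak counts and 1075 naive counts, and the direction of its log2 ratio (0.06) turned with library totals and upper quartile scaling. Gpr137b and its near copy Gpr137b-ps, which is listed as a transcribed pseudogene, lay at -0.65 and -0.15. They can share reads and are uncertain. Gpr137c lay at -0.08.

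No orphan of the remaining class with 50 or more counts passed 2-fold. Gpr162 (399 peak and 207 naive counts) was 1.75-fold higher (interval 1.48 to 2.08). Gpr19 (160 peak and 90 naive counts) was 1.62-fold higher (interval 1.24 to 2.12), and Gpr157 (2669 peak and 1550 naive counts) 1.57-fold higher (interval 1.47 to 1.67). Gpr160 was 1.37-fold higher, with 1472 peak counts and 976 naive counts. Gpr146, a liver and macrophage receptor linked to plasma cholesterol, had 3894 peak counts and 4118 naive counts (1.16-fold lower, interval 1.11 to 1.21). Gpr180, Gpr21 and Gpr153 lay at log2 ratios of -0.21, -0.46 and -0.33, and Gpr179, of the class C receptors, at -0.83.

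Of the 17 members under 50 counts, 3 had an interval wholly above 2-fold, 2 wholly below and 12 neither. Among those wholly above were Adgrf3 (17 peak and 0 naive counts, interval from 3.76-fold upward) and Gpr176 (11 peak and 0 naive counts, interval from 2.28-fold upward). Adgrf3 and Gpr176 met the minimum count for members through peak reads alone. For a gene with 0 naive counts, that minimum by itself puts the whole interval above 2-fold. The place of Adgrf3 and Gpr176 in this group thus followed from the rule and is no separate evidence of a difference. Among those wholly below was Gpr75 (2 peak and 16 naive counts, 8.79-fold lower, interval 2.07 to 78.8). Among the other 12 were Adgra1, Adgrg3, Gpr3, Gpr4, Gpr17, Gpr20, Gpr62, Gpr85, Gpr158, Gpr161 and Gpr182. With so few reads, differences beyond 2-fold were mostly not detectable at this depth.

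Signalling genes downstream of the receptors were mostly within 2-fold. Of 13 G alpha subunits, 1 was at least 2-fold lower (Gnao1, 135 peak and 379 naive counts) and 12 were neither, and of 10 G beta and gamma subunits and of 7 receptor kinases and arrestins with 50 or more counts none passed 2-fold. Regulators of G protein signalling shorten the signal of G proteins. Of 11 with 50 or more counts, 1 was higher and 2 lower. Rgs16 had 106 peak counts and 5 naive counts (19.3-fold higher, interval 8.01 to 60.6), while Rgs5 and Rgs4 were 3.13-fold and 2.37-fold lower. Of 19 adenylyl cyclases and cyclic AMP phosphodiesterases with 50 or more counts, 6 were lower and 1 higher. Adcy8 was 4.15-fold, Pde3a 3.81-fold and Pde4c 3.17-fold lower. Of 10 protein ligands of adhesion and Gpr37 receptors with 50 or more counts, 3 were higher and 5 lower. Tgm2, a transglutaminase that binds Adgrg1, had 19664 peak counts and 5948 naive counts (3.01-fold higher, interval 2.92 to 3.10), and the latrophilin ligands Tenm3 and Flrt1 were 3.46-fold and 2.95-fold lower.

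Some members lie side by side in the genome and differed sharply from each other. On chromosome 8, Adgrg5 ends 31.5 kb before Adgrg1, which lies 2.9 kb from Adgrg3, with no protein-coding gene between them, yet Adgrg5 was 89.3-fold higher and Adgrg1 2.07-fold lower in the peak library. On chromosome 14, Gpr18 and Gpr183 lie 36.4 kb apart, both within Ubac2, and were 33.4-fold higher and 2.47-fold lower. Ubac2 itself had 1633 peak counts and 1588 naive counts (log2 ratio -0.10), so the ratios of the 2 receptors did not follow that of the gene around them. Gpr171 likewise lies within Med12l, which had 1896 peak counts and 2050 naive counts. On chromosome 8, Adgre5 and Adgrl1 lie 158.8 kb apart, at log2 ratios of -0.26 and -1.18. On chromosome 17, Gpr108 and Adgre1 lie 109.8 kb apart with Vav1 between them, at 0.17 and 0.10. In all, 16 members overlap another protein-coding gene whose symbol is in the RNA-seq table. Adgre5 also overlaps Ddx39a, a pair that this count leaves out. No source used here says if reads were counted by strand, so reads of all such pairs are uncertain.

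**Figure D4:**
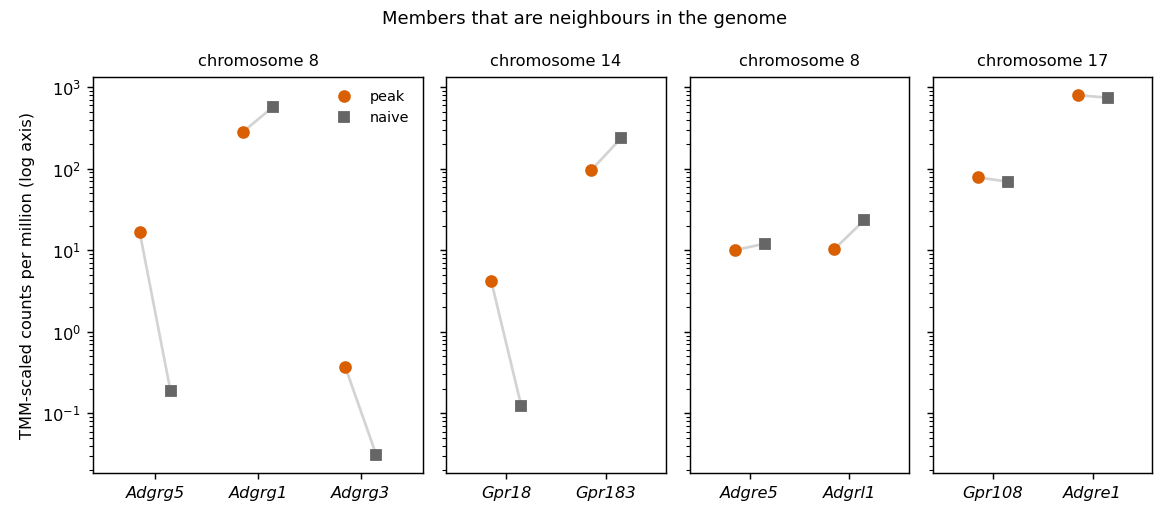
TMM-scaled counts relative to library size (log axis) in the peak library (circles, left) and the naive library (squares, right) of members that neighbour each other, 1 panel per locus. Adgrg5 and Gpr18 are higher in the peak library by 89.3-fold and 33.4-fold, and their neighbours Adgrg1 and Gpr183 are lower.

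DNA methylation at the members was read from MiGS, whose signal is the captured methylated DNA per window. Capture needs methylated CpG, and the signal was scaled by length and not by the number of CpG. A low value therefore does not show that the CpG present were little methylated. Recovered reads summed over windows to 43970332 and 35285601 in the peak libraries and 30424742 and 36501153 in the naive libraries, and 214 to 284 windows held 42.9% to 55.9% of them. The gene bodies of 62 members were covered, and all had reads. Their median signal per kb was 11.0 and 12.5 in the peak libraries and 11.9 and 11.7 in the naive libraries, against 8.87 and 7.14 (peak) and 7.18 and 8.0 (naive) over all 21555 gene bodies. Bodies of Gpr genes (medians of 13.1 and 14.1 in the peak libraries, 16.5 and 16.2 in the naive libraries) held more signal per kb than those of adhesion genes (7.40 and 7.60 peak, 7.69 and 8.14 naive) in each of the 4 libraries. Gpr182 was the most heavily captured body, with 202 and 313 per kb in the peak libraries and 190 and 522 per kb in the naive libraries. Adgre1, the member with the highest RNA level, had little, with 0.788 and 1.73 per kb in the peak libraries and 1.29 and 2.59 per kb in the naive libraries.

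No member passed the test between the conditions in MiGS. By limma on log2(signal per kb + 1) with Benjamini-Hochberg adjustment over all genes, 0 of 61 member bodies passed (background 0.0% of 18730 bodies in either direction), with 1 at an unadjusted p under 0.05; edgeR and DESeq2 on the recovered reads also gave 0. At the gene ends, 0 of 34 members passed (background 0.0% of 12965 gene ends), with 3 at an unadjusted p under 0.05, and edgeR and DESeq2 gave 0. The lowest adjusted p among members by limma was 0.967 in bodies and 0.913 at ends. The submitters name 2 biological replicates, but nothing in the labels says that the 2 libraries per condition come from separate pools. These values therefore measure the spread between libraries, which may be technical. With the replicate number as a block, a pairing the labels do not describe, limma called 1 member higher and 6 lower in bodies (background 1.35% and 5.3%) and edgeR 0 higher and 3 lower (background 0.331% and 3.31%). At the ends, limma with the block called 0 higher and 2 lower (background 0.586% and 4.5%) and edgeR 1 higher and 1 lower (background 0.27% and 3.05%). Failing the threshold does not show that methylation was the same.

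Among the bodies with the smallest p on the lower side were Gpr20 and Gpr15. Gpr20 had 18.9 and 30.6 per kb in the peak libraries and 30.8 and 67.3 per kb in the naive libraries, a log2 difference of -0.89 with a standard error of 0.43. Its groups did not overlap, though the highest peak value lay just below the lowest naive value. Gpr15 had 13.5 and 45.8 per kb in the peak libraries and 44.3 and 61.4 per kb in the naive libraries, so its groups overlapped. On the higher side were Gpr17, with 26.0 and 23.6 per kb in the peak libraries and 22.2 and 7.29 per kb in the naive libraries, Gpr171, with 24 reads in all 4 libraries together, and Gpr137b-ps. Gpr65, whose RNA was 4.24-fold higher in the peak library, had 46 and 77.6 per kb in the peak libraries and 92.3 and 219 per kb in the naive libraries (adjusted p = 0.967 by limma).

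**Figure D5:**
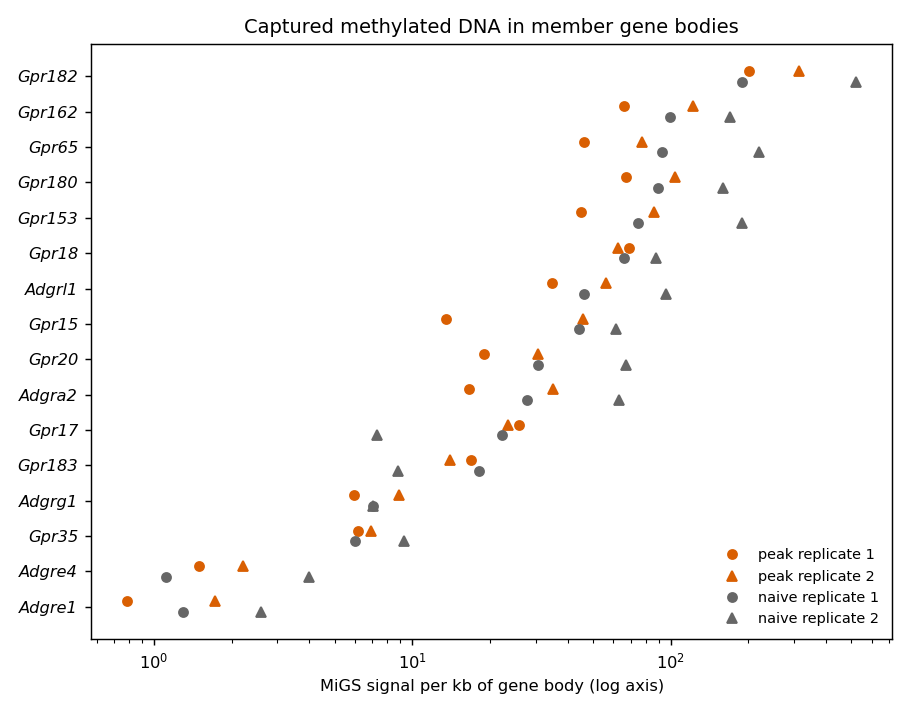
MiGS signal per kb of gene body (log axis) of 16 members in the 2 peak libraries (orange, upper points) and the 2 naive libraries (grey, lower points), ordered by mean level. The members were taken for a high level, a small p or an RNA level or ratio described in the text; Gpr65 lies at 46 and 77.6 per kb in the peak libraries and 92.3 and 219 per kb in the naive libraries.

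The ends of the genes (1000 bp beyond and 500 bp within each end) held no read in any library for 19 of 62 members (30.6%), a share close to the 31.6% of all genes. Among these members without reads were Adgre1, Adgrg1, Adgrg5, Gpr84, Gpr35, Gpr65 and Gpr183, of both directions in RNA. The ends with the smallest p on the higher side were Gpr20, with 11.0 and 5.99 per kb in the peak libraries and 0 in both naive libraries, Gpr137, with 9.94 and 14.7 per kb in the peak libraries and 3.41 and 2.32 per kb in the naive libraries, and Gpr89. On the lower side, Gpr18 had 30.9 and 68.0 per kb in the peak libraries and 102 and 165 per kb in the naive libraries, a log2 difference of -1.48 with a standard error of 0.68 (adjusted p = 0.913 by limma), and Adgrb1 was also among the 3 with the smallest p. The starts of Gpr18 and Gpr137 are the outer ends of these genes and had no read around them in any library. The signal given here for these genes thus came from the end away from the start. Around the start used above, which for 13 members lies over 500 bp inside the gene, 28 of 47 members (59.6%) had no read in any library, against 63.0% of all genes. Of the 9 RNA-higher members with a tabulated start, Gpr15 alone had reads there, with 35.9 and 47.9 per kb in the peak libraries and 42.4 and 48.0 per kb in the naive libraries. Of these 9 members, 8 had 5 or fewer CpG in the 250 bases before the start. Absent reads there thus do not show absent methylation.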

How the data were processed

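The deposited RNA-seq table held whole-number counts per gene and FPKM values, per the file headers; the deposited MiGS files held a signal value per 50 bp window. Bowtie2, TopHat, featureCounts, edgeR and build mm10 are named, per the submitters' processing notes, without roles or versions. Of 42303 rows, 506 without a symbol (0.0647% of peak and 0.0573% of naive counts) stayed out of the members. Members and lists were chosen with earlier results of these data known. Chromosomes X and Y were not analysed here. Counts were scaled by TMM (edgeR 4.0.16) on genes with 50 or more counts; log2 ratios had 0.5 added to each count, and fold ratios had none. A call means at least 2-fold among those genes. MiGS signal was whole reads divided by a factor per library (100% whole within 0.001); absent windows were taken as 0. The main MiGS test was limma 3.58.1 (trend) on log2(signal per kb + 1) for features with 20 or more reads, two-sided, adjusted p at 0.05; bodies left out 500 bp at both ends. edgeR and DESeq2 1.42.0 ran as alternatives. R 4.3.3, Python 3.11.15 and scipy 1.17.1 were used, and steps were tested on simulated data. The pass mark of the MiGS simulation was set at a spread smaller than that of the members. It therefore does not show what the MiGS test could detect in these libraries. Named members were the 15 highest and 12 lowest ratios, the 12 highest mean FPKM, Adgre1, Adgre4 and Adgre5, up to 3 genes per pathway list by log2 ratio among those with 50 or more counts, and the 3 smallest p per direction in MiGS; any other member could be named. Some genes that this rule covers are not reported here. Gene coordinates and promoter sequences came from RefSeq, GRCm38.p6. Other settings tried are in the closing section.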

Additional observations from a re-analysis of the deposited data

How the results depend on the processing

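Library totals, DESeq2 size factors, upper quartile scaling and 2 counts added in place of 0.5 were tried on the ratios of 46 members: of 184 values, 152 moved by less than their counting interval, 32 moved further and 0 called ratios reversed. Over all genes the median log2 ratio shifted by -0.09 (library totals), 0.07 (DESeq2 size factors) and -0.14 (upper quartile). The count of higher members was 5 with a minimum of 200 counts, since the alternative drops low genes, and that of lower members was 8 with the whole interval beyond 2-fold. The CpG counts with starts near the outer gene end, an alternative added after seeing the data, kept the order of the groups. In MiGS, leaving out each library in turn gave 0 to 0 members in bodies and in ends; where a lone library stood for a condition, it was assumed to vary like the others. The replicate numbers give 2 pairs and the labels do not say what they share; deviations of same-numbered libraries correlated at 0.353 in bodies and 0.240 in ends. With the replicate number as a block, limma called 7 members in bodies (among them Adgra2, Gpr15, Gpr153, Gpr17, Gpr20 and Gpr65) of 1244 genes in all, and edgeR 3 of 682. At the ends, limma with the block called 2 (Gpr176 and Gpr18) of 659, and edgeR 2 (Gpr18 and Gpr20) of 431. The cause was not tested. Depth limited the members under 50 counts.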

Other observations

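Motifs were searched in the 250 bases before the start of the 47 members in the promoter table (the starts used above), on both strands, with the share among all 25748 tabulated promoters beside each. The interferon response element, searched as GAAA repeated after any 2 bases, was found in 2 members, Gpr15 (beginning 213 bases before the start) and Gpr18 (41 bases before it), against 3.04% of all promoters. The PU.1 motif GAGGAAGT was found in 2, Gpr31b (74 bases before the start) and Gpr137c, against 2.46%. The AP-1 motif TGANTCA was found in Gpr15 only, against 6.89%, and did not overlap the other motif there. The NF-kappa-B motif, searched as GGGA and CC with any 4 bases between, was found in 9 members, against 17.6%, and the TATA box TATAAA in 4, against 13%. A match is a description of these letters and not a binding site. Of the 92 genes with a matching symbol, 29 had fewer than 10 counts, 11 of them 0 in both libraries, and among the rest of these Gpr55 and Gpr83 had 3 peak counts and 0 naive counts each.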
